A study of Mus musculus with 2 samples.

Results

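Interferon-high tumour neutrophils were 61 of 2610 filtered cell barcodes in single-cell RNA counts of CD45+ cells from 4T1 tumours. They were selected on measured transcripts. A barcode counted as a neutrophil when S100a8 and S100a9, the subunits of calprotectin, made up at least 1% of its UMIs (unique molecular identifiers, 1 per counted transcript) and no UMI of Cd3d, Cd3e, Cd3g or Cd79a was present. It was a member when Isg15, Rsad2, Ifit1 and Ifit3 together made up at least 0.3% of its UMIs. The library from shPml tumours held 57 members among 161 neutrophils and 1754 filtered barcodes. The library from shCTRL tumours held 4 members among 19 neutrophils and 856 filtered barcodes.

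4T1 is a mouse mammary carcinoma line used to model triple-negative breast cancer. The line expressed either shPml, a hairpin that targets Pml, or shCTRL, a control hairpin. BALB/c mice of 6 to 8 weeks received the cells in the fat pad, and tumours of like size were taken on day 14, when CD45+ cells (leukocytes) were sorted for 10x Chromium libraries. The hairpin was in the tumour cells, so the host leukocytes measured here carried no hairpin by design, and each group had 1 library. The number and sex of the mice behind each library are not given in the sources used here. No difference between the groups therefore has a replicate check, no p-value is given, and every interval is an exact 95% interval that covers counting error only.

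Type I interferon is sensed by the receptor chains IFNAR1 and IFNAR2, which activate the kinases JAK1 and TYK2. These phosphorylate transcription factors that join IRF9 and bind interferon-stimulated response elements in promoters. The induced genes include direct antiviral effectors, sensors of viral RNA and feedback inhibitors of the pathway. Neutrophils are short-lived granulocytes that load their granules while they mature in the bone marrow and can respond to interferon after they leave it.

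The 4 interferon genes of the rule stand for different antiviral activities. Isg15 encodes a ubiquitin-like modifier, Rsad2 encodes viperin, an enzyme that makes a chain-terminating nucleotide, and Ifit1 and Ifit3 encode proteins that act on foreign RNA. Their promoters are shown because they share a sequence that the rule did not use. The motif GAAANNGAAA, the core of an interferon-stimulated response element, was searched on both strands from 250 bases before to 50 bases after each RefSeq start site (GRCm38.p6), with overlapping matches counted. It was present in all 4 rule genes, against 3.44% of 32851 promoter windows of all genes. In the stretches of 100 bases below, upstream of the start site and written 5′ to 3′ along the gene's strand, capitals mark the motif on either strand. Slfn4, the gene of the antiviral and interferon-signalling lists with the most UMIs in the members (290), is shown beside them because its window holds no match.
Isg15 (chr4:156200836-156200935, minus strand, 3 overlapping matches): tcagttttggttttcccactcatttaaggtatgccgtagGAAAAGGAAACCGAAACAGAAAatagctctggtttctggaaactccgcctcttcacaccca
Rsad2 (chr12:26456518-26456617, minus strand, 1 match): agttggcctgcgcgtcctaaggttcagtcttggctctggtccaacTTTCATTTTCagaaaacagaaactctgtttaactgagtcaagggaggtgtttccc
Ifit1 (chr19:34640749-34640848, plus strand, 2 matches): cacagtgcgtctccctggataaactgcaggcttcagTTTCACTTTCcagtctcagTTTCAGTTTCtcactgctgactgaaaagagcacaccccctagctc
Ifit3 (chr19:34583345-34583444, plus strand, 2 matches): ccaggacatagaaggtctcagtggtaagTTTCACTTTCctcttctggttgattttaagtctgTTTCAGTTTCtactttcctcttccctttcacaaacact
Slfn4 (chr11:83175086-83175185, plus strand, 0 matches): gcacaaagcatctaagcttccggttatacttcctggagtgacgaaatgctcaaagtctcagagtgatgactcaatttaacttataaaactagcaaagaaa

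The first match began 78 bases before the start of Isg15, as the first of 3 that overlap. In Rsad2 the match lay on the opposite strand, 120 bases before the start. The matches of Ifit1 began 104 and 85 bases before the start and those of Ifit3 156 and 122 bases before it. Counted per gene, 13 of 23 antiviral effector genes with a RefSeq promoter held the motif, as did 4 of 18 genes of interferon signalling and feedback and 10 of 14 interferon-gamma targets. The motif was held by 3.99% of all 27025 genes and by 6.47% of 1005 matched genes with at least 50 UMIs in shPml neutrophils. None of the 14 matched immature granule genes and none of the 17 matched NF-kB target genes held it. The motif TTCNNNGAA, the gamma-activated site, was absent from the windows of the 4 rule genes and was held by 9.55% of all 27025 genes. It was found in 8 of 14 interferon-gamma targets, 6 of 23 antiviral effectors, 3 of 17 mature neutrophil genes and 1 of 18 signalling genes. A match describes letters in a window and was not tested as a binding site.

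In gene order, Rsad2 (chromosome 12, 26442746 to 26456452, minus strand, GRCm38, GENCODE M21) lies near Cmpk2 (26469204 to 26479837, plus strand), which encodes the kinase that makes the substrate for viperin. Ifit2 (34550694 to 34576419), Ifit3 (34583531 to 34588731) and Ifit1 (34640871 to 34650009) lie in this order on the plus strand of chromosome 19. Isg15 is on chromosome 4 (156199424 to 156200818, minus strand).

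The shPml library held 2268 barcodes with 4227187 UMIs and the shCTRL library 2244 barcodes with 5044925 UMIs. Barcodes over 10% mitochondrial UMIs, which were left out, numbered 514 and 1388. Of the barcode sequences, 266 occurred in both libraries, none of them a member, with 3 among the shPml and 2 among the shCTRL interferon-low neutrophils. The shPml members held 212954 UMIs in all, with a median of 3478 per cell (625 to 12209), and the 104 interferon-low neutrophils of that library 371336 with a median of 3017. The 4 shCTRL members held 746, 1309, 2215 and 2752 UMIs, 7022 in all, and 15 interferon-low neutrophils 73091. Comparisons with the shCTRL members thus rest on 4 shallow cells. Pml, which encodes the scaffold protein of PML nuclear bodies, had 0 UMIs in the members of both libraries. Set to 3 counts, it would be at 14.1 CPM (counts scaled to 1000000 UMIs of a class) in shPml and 427 CPM in shCTRL. The upper counting bounds were 17.3 and 525 CPM. Since the hairpin was in the injected tumour cells, the Pml level checks no label.

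The members carried the transcripts of neutrophils beyond calprotectin. In the shPml members 10 of 10 further neutrophil markers had UMIs, summing to 23526 CPM, led by G0s2 (2178 UMIs), a lipolysis inhibitor of mature neutrophils. The interferon-low neutrophils stood at 21587 CPM for the same markers. In the shCTRL members 9 of 10 had UMIs (12674 CPM), with Mmp9 at 0. Markers of other cells were scarce. Of 12 monocyte or macrophage markers, 6 had UMIs in shPml members, in all 60 UMIs (282 CPM), of which 41 were Cd68, while C1qa, C1qb, C1qc, Ms4a7, Adgre1 and Ccr2 were at 0. The interferon-low neutrophils had 905 CPM of this list, with 9 of 12 markers. Dendritic cell markers had 4 UMIs in shPml members, all of Ccr7, and eosinophil, basophil or mast cell markers had 1, of Ccr3, with 0 of both lists in shCTRL members. Natural killer, epithelial and red blood cell markers had 0 UMIs in the members of either library. T cell markers had 8 UMIs in shPml members and 0 in shCTRL members, and B or plasma cell markers 19 and 1, of which Igkc gave 15 and 1. T cells were gated as barcodes with a CD3 UMI, no Cd79a UMI and under 1% of UMIs from S100a8 and S100a9. As a measure of free RNA, capped by that gate, S100a8 or S100a9 had a UMI in 23.2% of shPml T cells (median 1288 UMIs) and in 8.44% of shCTRL T cells (median 4160 UMIs). These were 9.10% and 1.96% after every cell was thinned to 500 UMIs. The summed level there was 185 and 28.7 CPM, against 122768 and 116064 CPM in the members.

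Isg15 and Rsad2 carried nearly all of the selected signal. Of the 2170 rule UMIs in shPml members, Isg15 gave 53.4%, with UMIs in 56 of 57 cells, and Rsad2 gave 41.3%, in 47 cells. Ifit1 gave 3.96%, in 25 cells, and Ifit3 gave 1.38%, in 7 cells. Isg15 alone would have taken 41 members past the threshold and Rsad2 alone 22. Among the members, 9 had UMIs of 1 rule gene, 22 of 2, 22 of 3 and 4 of all 4. The share of rule UMIs ran from 0.312% to 7.68%, with a median of 0.717%, and 17 members stood above 1%. The highest cell held 15.7% of all rule UMIs, and the 10 highest, from 1.5% upward, held 48.1%. In shCTRL the 4 members gave 91 rule UMIs, 67.0% of them in 1 cell.

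Cells near the threshold differed by few UMIs. The 3 lowest members stood at 0.312%, 0.320% and 0.321% (12 of 3841, 2 of 625 and 5 of 1559 UMIs). The 3 highest interferon-low cells stood at 0.296%, 0.275% and 0.269% (12 of 4049, 2 of 728 and 13 of 4838 UMIs). In shPml, 12 members were under 0.4% and 10 interferon-low cells were at 0.2% or above, while 49 of 104 interferon-low cells had no rule UMI. The members are therefore the upper range of a continuous score.

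**Figure D1:**
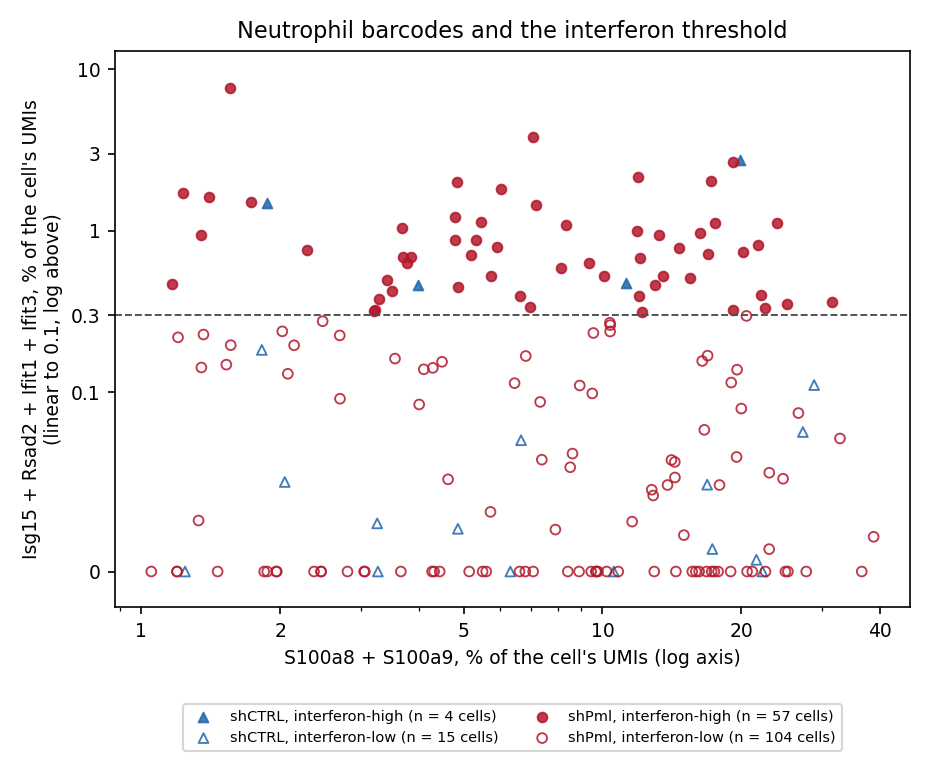
Each point is 1 neutrophil barcode: the horizontal axis is the percent of its UMIs from S100a8 and S100a9 (log axis), the vertical axis the percent from the 4 interferon rule genes (linear to 0.1, log above), and the dashed line the threshold of 0.3%. The shPml members (filled) lie from 1.17% to 31.5% calprotectin, with interferon-low cells up to 38.7%, and reach 7.68% rule UMIs, and 49 shPml interferon-low cells lie at 0.

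Members were 35.4% of the neutrophils in shPml (28.0 to 43.3%) and 21.1% in shCTRL (6.05 to 45.6%). The ratio of these shares was 1.68, and its interval of 0.622 to 6.38 includes 1. As a share of all filtered barcodes, members were 3.25% in shPml and 0.467% in shCTRL, a ratio of 6.95 (2.57 to 26.4). Neutrophils as a whole were 9.18% and 2.22% of filtered barcodes, a ratio of 4.14 (2.56 to 7.05). The ratio over all filtered barcodes is the product of the other two. Median mitochondrial share was 0.534% in shPml and 0.455% in shCTRL members. The filter kept 77.3% of shPml and 38.1% of shCTRL barcodes. With the rule applied to all barcodes and no filter, the members were still 57 and 4, which was 2.51% of 2268 and 0.178% of 2244 barcodes, a ratio of 14.1 (5.22 to 53.5). The share over barcodes thus moved with the filter, while the number of members did not.

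Members also held more transcripts of interferon genes that the rule did not use. Across 51 such genes (antiviral effectors, and interferon signalling and feedback), the shPml members summed to 11392 CPM and the interferon-low neutrophils to 3498 CPM, a fold of 3.26 (3.04 to 3.49). In shCTRL the levels were 19795 and 2873 CPM, a fold of 6.89 (5.52 to 8.58). Per cell, shPml members ranged from 0.186% to 3.76% of UMIs with a median of 0.938%, and interferon-low cells from 0% to 1.95% with a median of 0.315%. The ranges overlapped: 56 of 57 members stood above the median interferon-low cell, 39 above its 95th percentile and 7 above its highest cell. The 4 shCTRL members ranged from 1.63% to 3.22% and all stood above the highest shCTRL interferon-low cell, at 0.805%. The rule chose the cells in this same contrast, so these values describe the selection and carry no test.

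**Figure D2:**
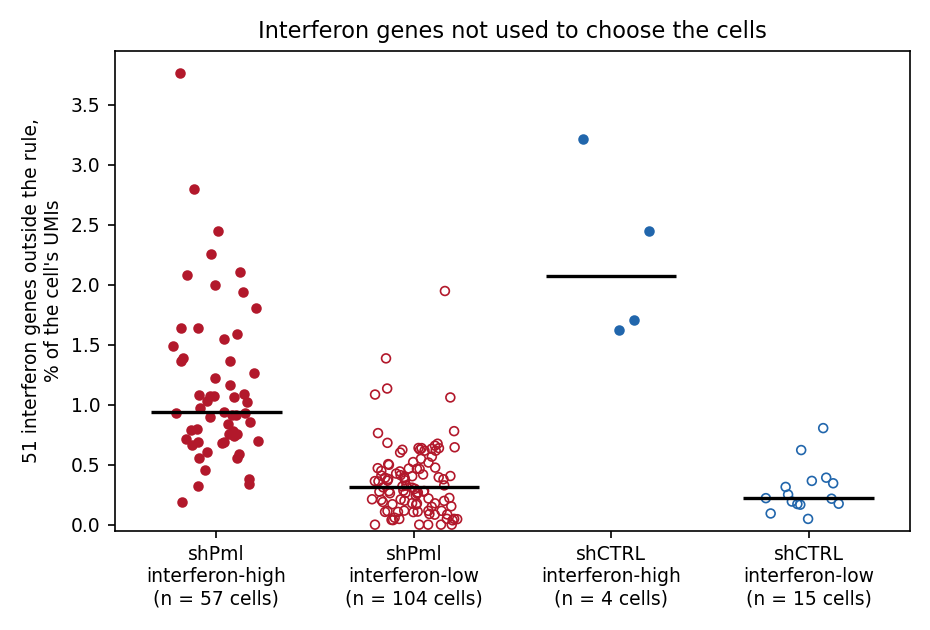
Each point is 1 cell, with the percent of its UMIs from 51 interferon genes outside the rule, by library and class, and the bar is the median over cells. The medians of the shPml classes are 0.938% and 0.315%, with overlapping ranges, and the 4 shCTRL members lie between 1.63% and 3.22%.

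No other gated leukocyte class reached the members' summed level of interferon genes, but only the members were chosen on interferon transcripts. Monocytes or macrophages, gated on at least 2 UMIs of macrophage genes, among them C1qa, C1qb, C1qc, Csf1r and Ms4a7, had 5757 CPM of the 51 genes in shPml and 4808 in shCTRL. T cells had 1499 and 2368 CPM, and B cells (Cd79a) 1737 and 1596 CPM. The members of shPml thus stood 1.98-fold (1.86 to 2.11) above monocytes or macrophages for the 51 genes. For the rule genes that fold was 11.2 (9.83 to 12.7), a value set by the rule. The fold for the 51 genes also depends on the selection. The interferon-low neutrophils, at 3498 CPM in shPml and 2873 in shCTRL, lay below the monocytes or macrophages. Per cell, the shPml monocytes or macrophages had a median of 0.430% of UMIs from the 51 genes and reached 2.52%. The lists did not share one ratio: antiviral effectors were 2.44-fold and signalling genes 1.41-fold (1.28 to 1.56) above the monocyte or macrophage level. T cells of shPml were at 547 CPM for antiviral effectors and 953 CPM for signalling genes, the opposite order to the members (7725 and 3667 CPM).

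**Figure D3:**
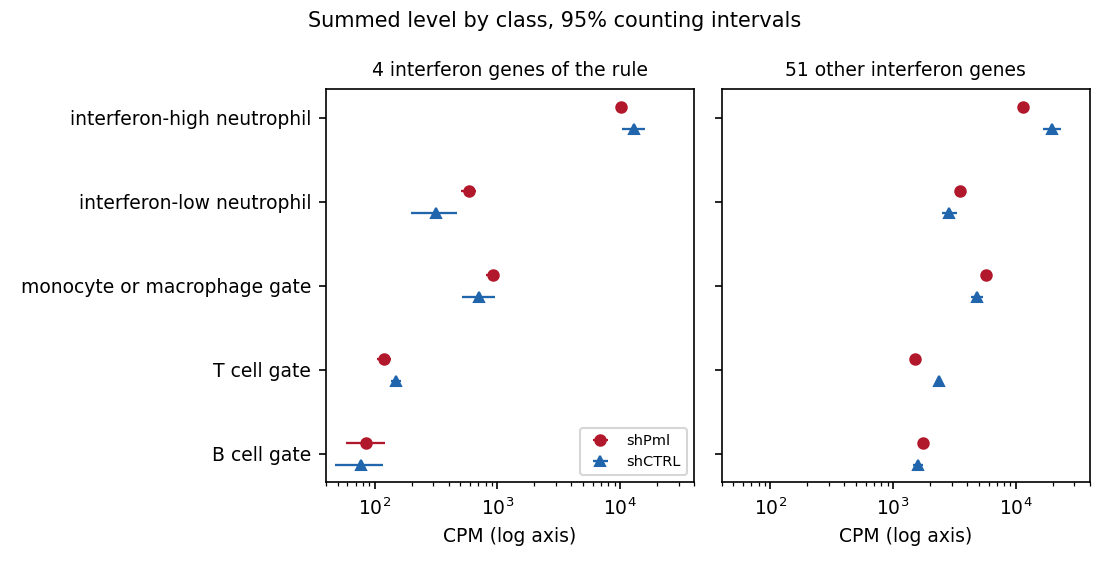
Summed CPM (log axis) of the 4 rule genes and of the 51 other interferon genes in 5 gated classes, with exact 95% counting intervals, shPml as circles and shCTRL as triangles. For the 51 genes the members lie at 11392 and 19795 CPM, above the monocyte or macrophage gate at 5757 and 4808 CPM.

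Within shPml, the genes that differed most between interferon-high and interferon-low neutrophils were mainly interferon genes on the high side (9 of the 12 named). Of these 9, Rsad2, Isg15 and Ifit1 are rule genes, so the rule set their place. Cmpk2, Usp18, Slfn5, Herc6, Trim30a and Isg20 lie outside the rule. The share of interferon genes among all ranked genes is not given here. The 12 named on the low side were mixed, with the granule genes Camp, Ltf and Ngp and the macrophage-associated genes Apoe and H2-Aa among them. Among 1278 genes with at least 50 UMIs, 60 were at least 2-fold higher in members (4.69%) and 101 at least 2-fold lower (7.9%). With at least 20 UMIs, as used for gene lists, 5.77% of 2478 genes were at least 2-fold higher and 13.6% at least 2-fold lower. The median log2 ratio of those genes was -0.15. The rule used this contrast, so the values below describe what went with the selection.

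Of the rule genes, Isg15 had 1158 UMIs in members and 180 in interferon-low cells (log2 3.49). Rsad2 had 896 and 27 (log2 5.85, 5.30 to 6.46), Ifit1 86 and 9 (log2 4.06), and Ifit3 30 and 0. The calprotectin genes were nearly level, S100a9 at log2 -0.16 and S100a8 at -0.26. In shCTRL, Isg15 had 50 and 22 UMIs, Rsad2 29 and 1, Ifit1 10 and 0, and Ifit3 was found in 1 of 4 members.

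Of the antiviral effectors, 17 of 19 measured genes were at least 2-fold higher in members and none at least 2-fold lower, with a median log2 ratio of 2.35. Mx1 and Mx2 were not analysed here. Cmpk2, near Rsad2, had 73 UMIs in 18 members and 2 UMIs in interferon-low cells (log2 5.99, 4.09 to 9.06). Slfn5, of the Schlafen family, had 108 and 17 UMIs (log2 3.47). Slfn8, of the same family, had 26 and 2 (log2 4.50, 2.50 to 7.62). Ifit2, near Ifit3, had 31 UMIs in 9 members and 0 in interferon-low cells, a log2 ratio of 4.17 against a floor of 3 counts. The effectors with the most UMIs differed less. Slfn4 had 260 and 131 UMIs (log2 1.79) and was found in 55 of 57 members. Samhd1, a dNTP hydrolase that restricts viruses, had 207 and 297 UMIs (log2 0.28, 0.02 to 0.54). Rtp4 stood at 170 and 76 UMIs (log2 1.96), Isg20, an exonuclease, at 133 and 42 (log2 2.47), and Trim30a at 96 and 28 (log2 2.58). Of the 2'-5' oligoadenylate synthetase family, Oasl1 had log2 2.35, Oasl2 3.61, Oas3 1.64, Oas2 2.18 and Oas1a 1.47.

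Of the genes of interferon signalling and feedback, 12 of 16 measured were at least 2-fold higher, with a median log2 ratio of 2.13. Usp18, the protease that removes ISG15 and dampens the receptor, had 50 UMIs in members and 5 in interferon-low cells (log2 4.12, 2.81 to 5.81). Herc6, the ligase for ISG15 in mice, had 49 and 7 (log2 3.61). The RNA sensors Ddx58 (RIG-I) and Ifih1 (MDA5) stood at log2 2.92 and 2.10. Irf7, a transcription factor that amplifies interferon production, had 81 and 53 UMIs (log2 1.41). Of the signal-carrying factors, Stat2 had 23 and 9 UMIs (log2 2.16, 0.99 to 3.45), while Irf9 had 35 and 47 (log2 0.38, -0.30 to 1.04). Upstream of them, 0 of 6 measured genes of the interferon and receptor list were at least 2-fold higher, and the median was -0.37. Ifnar1 had 17 and 47 UMIs (log2 -0.66, -1.56 to 0.16), Ifnar2 38 and 73 (log2 -0.14), and Ifngr2 7 and 35 (log2 -1.52, -2.94 to -0.33).

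Genes known as interferon-gamma targets and antigen-presentation genes stood higher by less. Of the interferon-gamma targets, 7 of 10 measured were at least 2-fold higher (median log2 1.42). Cd274, which encodes the inhibitory ligand PD-L1, had 369 UMIs in 49 members and 198 in interferon-low cells (log2 1.70, 1.45 to 1.96). In shCTRL, Cd274 UMIs in the 4 members were 0, 2, 8 and 15, so 1 cell had none. The guanylate-binding GTPase Gbp5 had 52 and 7 UMIs (log2 3.70) and Gbp2 207 and 110 (log2 1.71), while Irf1 was at log2 0.48. Of the MHC class I genes, 5 of 13 measured were at least 2-fold higher (median log2 0.64). Tap2, of the peptide transporter, was at log2 1.77, H2-Q4 at 1.67 and the immunoproteasome subunit Psmb9 at 1.34. H2-D1 and B2m, with the most UMIs of this list, were at log2 0.38 and 0.77. The IFITM genes, for membrane proteins that block viral entry, had 0 of 4 past 2-fold, with Ifitm3 at log2 0.71 and Ifitm1, at 1358 UMIs in members, at 0.18. Ifitm2 was at 592 UMIs in members and 1035 in interferon-low cells, a level ratio near 1. In shCTRL 3 of the 4 were at least 2-fold lower in members (median log2 -1.69), where 24.5% of 490 genes with at least 20 UMIs were at least 2-fold lower and 20.4% at least 2-fold higher. Ifitm1 had 23 and 769 UMIs there (log2 -1.68, -2.35 to -1.09), Ifitm2 9 and 303 (log2 -1.69) and Ifitm6 1 and 201 (log2 -4.27).

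**Figure D4:**
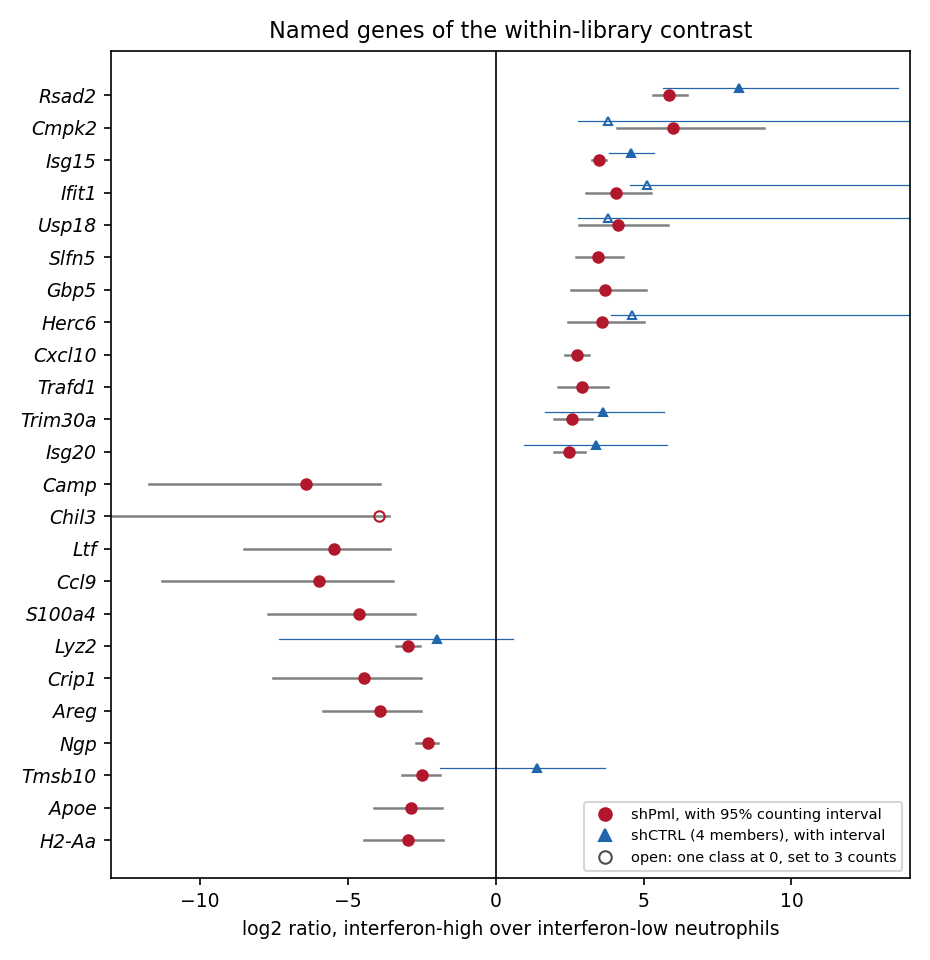
Log2 ratio of summed CPM, interferon-high over interferon-low neutrophils, for the 12 genes in each direction with the counting bound farthest from 0 in shPml, with 95% counting intervals (circles shPml, triangles shCTRL, open where 1 class was at 0 and set to 3 counts). Cmpk2 (5.99) and the rule gene Rsad2 (5.85) lie farthest right. Camp (-6.42) lies farthest left, and 98.7% of its interferon-low UMIs came from 1 cell.

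Of the 12 genes with the farthest bound on the high side, 9 were rule or listed interferon genes, and Gbp5, Cxcl10 and Trafd1, a regulator of innate signalling with 69 and 16 UMIs (log2 2.91), were the others. All 12 stayed higher when each gene's UMIs in the cell with the most were taken out of each class, with class totals kept. Cxcl10, a chemokine that attracts CXCR3-bearing T cells, was concentrated. Its 248 UMIs came from 10 members, 47.2% of them from 1 cell, against 65 UMIs in 8 interferon-low cells (log2 2.73, 2.33 to 3.15). The 10 members with Cxcl10 had a median of 1.46% rule UMIs and the others 0.682%, and 7 of the 10 also had Cmpk2. Cmpk2 was present in all 10 members with the highest rule share. Ifit2 and Ifit3 shared 3 members, of 9 and 7 with a UMI.

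On the low side the named genes were Camp, Chil3, Ltf, Ccl9, S100a4, Lyz2, Crip1, Areg, Ngp, Tmsb10, Apoe and H2-Aa. The granule genes Camp, Ltf and Ngp had 149, 153 and 593 UMIs in interferon-low cells, and 98.7%, 98.7% and 88.4% of them came from a single cell of 14108 UMIs with no rule UMI. Without the top cell of each class Camp had 0 and 2 UMIs and Ltf 1 and 2, so no direction could be given for them. Lyz2, a lysozyme gene of myeloid cells, was broader, with 55 UMIs in 12 members and 748 in 41 interferon-low cells (log2 -2.96, -3.39 to -2.57). The macrophage genes Apoe and the MHC class II gene H2-Aa had 8 and 101, and 6 and 81 UMIs, beside the higher monocyte or macrophage marker level of the interferon-low cells given above (905 against 282 CPM). Without cells that had any UMI of the genes of the monocyte or macrophage gate, which left 55 members and 85 interferon-low cells, the log2 ratios were -1.80 for Lyz2, -1.12 for Apoe, -0.92 for H2-Aa, -2.97 for Ccl9 and -0.76 for Tmsb10. Chil3, at 0 UMIs in the members, then had a log2 ratio of -0.12 with the members set to 3 UMIs, and no ratio could be given for S100a4 and Crip1. Camp, Ltf, Ngp and Areg stood at log2 ratios of -6.90, -5.95, -2.64 and -2.95 in that setting. The shCTRL library could not resolve these genes, since 1 UMI in its members is 142 CPM. There 10 of the 12 had 0 UMIs in members, 3 of them (Chil3, S100a4 and Areg) also had 0 in interferon-low cells, Tmsb10 had 2 and 8 UMIs (log2 1.38, -1.89 to 3.70), and every one of the 12 intervals included 0.

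The maturity lists differed from each other. Of the immature granule genes, 7 of 9 measured were at least 2-fold lower in members (median log2 -2.30). Camp, Ltf and Ngp, whose interferon-low UMIs came mostly from 1 cell, were among these 7. Without each gene's top-cell UMIs the median was -1.93, with no ratio for Camp and Ltf. That median was the ratio of Chil3, at 0 UMIs in the members and set to 3 counts. Mmp8, neutrophil collagenase, had 35 and 136 UMIs (log2 -1.16, -1.74 to -0.61), and Lcn2 251 and 537 (log2 -0.30). Of 20 mature neutrophil genes, 0 were 2-fold apart in either direction, with a median of -0.10. G0s2 had log2 0.38, Clec4e, a C-type lectin receptor, -0.02, Csf3r, the G-CSF receptor, -0.23, and Mmp9 -0.72. Retnlg, a resistin-like gene of mature neutrophils, had UMIs in 22 of 57 members, with a median rule share of 0.557% there and 0.760% in the other members. All 6 NADPH oxidase genes had ratios below 0, 0 of them by 2-fold (median log2 -0.56), with Cyba at 104 and 317 UMIs (log2 -0.81, -1.14 to -0.48).

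Within shPml, inflammatory genes were abundant in both classes and few were 2-fold apart. In shCTRL 7 of 13 were at least 2-fold lower in members, beside 24.5% of all 490 genes with at least 20 UMIs there. In shPml, of 20 measured cytokine and NF-kB target genes, 1 was at least 2-fold higher and 1 at least 2-fold lower (median log2 0.28). Cxcl2, a chemokine for CXCR2-bearing neutrophils, had 10012 UMIs in members and 15082 in interferon-low cells (log2 0.21). Il1b had 4128 and 6114 UMIs (log2 0.24). Ccrl2, an atypical chemokine receptor, had 1213 and 1100 (log2 0.94, 0.82 to 1.06), and Cxcl1 99 UMIs in 11 members and 59 in 6 interferon-low cells (log2 1.55). Of the chemokine list, 2 of 10 were at least 2-fold higher (Cxcl10 and Cxcl1) and 2 at least 2-fold lower (Ccl6 at -1.12 and Ccl9 at -5.98). Of 16 genes known from tumour-infiltrating neutrophils, 0 were at least 2-fold higher and 1 lower (Spp1, osteopontin, with 92 and 365 UMIs, log2 -1.19), and the median was 0.32. In shCTRL, of 13 measured cytokine and NF-kB target genes 0 were at least 2-fold higher in members and 7 at least 2-fold lower (median log2 -1.23). Il1b had 62 UMIs in the 4 shCTRL members and 1514 in 15 interferon-low cells (log2 -1.23, -1.62 to -0.86), and Cxcl2 64 and 2366 (log2 -1.83, -2.21 to -1.47). Of 19 mature neutrophil genes 2 were higher and 9 lower there (median -0.94), beside 20.4% of all 490 genes higher and 24.5% lower. The difference between the libraries in these ratios was not tested.

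In the suppressor list 4 of 13 measured genes were at least 2-fold higher and the median was -0.04. Beside Cd274 these were Nos2, the inducible nitric oxide synthase, with 71 UMIs in 13 members and 31 in 15 interferon-low cells (log2 2.0, 1.37 to 2.66), Lgals9 (log2 1.57) and Arg1. All 21 Arg1 UMIs came from 1 member. The most abundant genes of this list, Wfdc17 with 1380 and 2894 UMIs and Wfdc21 with 393 and 893, had log2 ratios of -0.27 and -0.38.

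**Figure D5:**
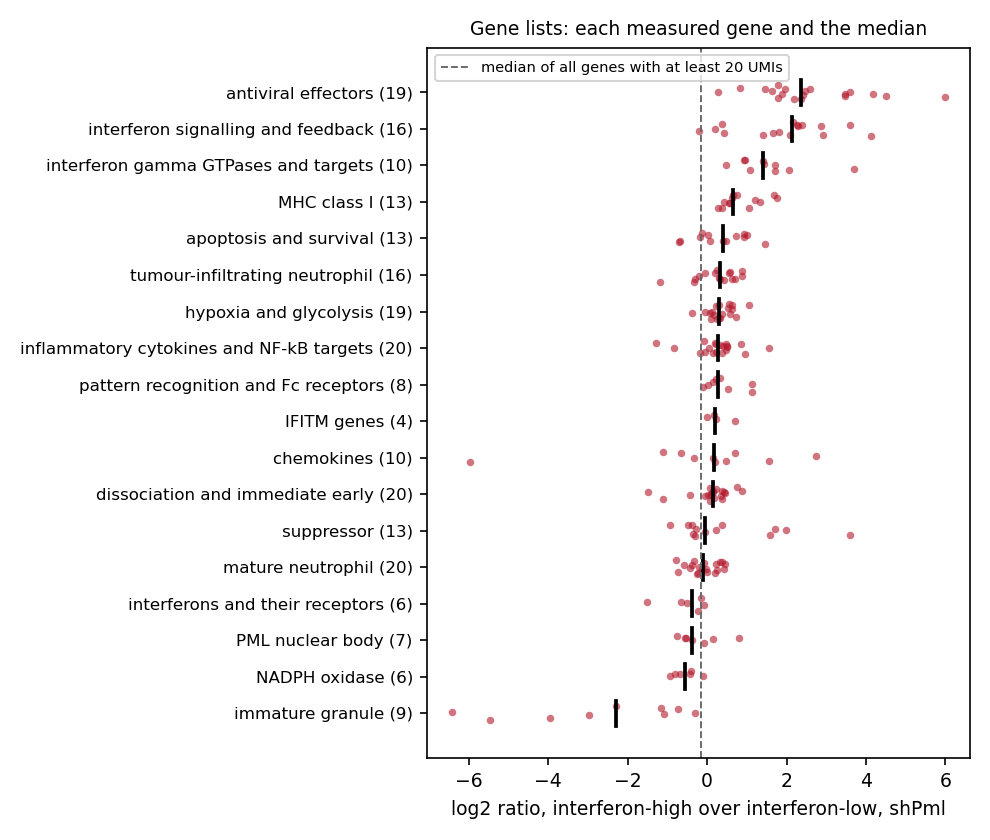
Each point is 1 gene with at least 20 UMIs in shPml neutrophils, placed by its log2 ratio of members over interferon-low cells, by gene list with the number measured in parentheses; bars are list medians and the dashed line is the median of all such genes (-0.15). The interferon lists lie to the right (medians 2.35, 2.13 and 1.42) and the immature granule list to the left (-2.30). In that granule list, 98.7%, 98.7% and 88.4% of the interferon-low UMIs of Camp, Ltf and Ngp came from 1 cell.

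Between the libraries, the 10 named genes that were higher in shPml members than in the 4 shCTRL members included the chemokine genes Cxcl2, Cxcl3, Ccl4 and Cxcl10. Those that were lower included the interferon gene Slfn4 and the immediate early genes Jun and Fosb. A fold could be given for 515 genes with at least 50 UMIs; for another 44 the shCTRL members had 0 UMIs and 3 counts would have exceeded the shPml level. Of the 515 genes, 113 were at least 2-fold higher in shPml members (21.9%) and 83 at least 2-fold lower (16.1%). These counts carry no test and rest on 7022 UMIs in shCTRL.

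Cxcl2 made up a median of 4.50% of UMIs in shPml members (0 to 16.0%), and 0.0363% to 2.03% in the shCTRL members. In sums that was 10012 UMIs against 64 (log2 2.37, 2.01 to 2.75), and 70.3% of the shCTRL UMIs came from 1 cell. The chemokine genes Cxcl3 and Ccl4 had 857 and 646 UMIs, each in 28 of 57 shPml members, and 0 in shCTRL members. Against a floor of 3 counts over the shCTRL class they were 9.42-fold and 7.10-fold higher. Their lower counting bounds were log2 2.93 and 2.53. Ier3, an immediate early survival gene, had 646 UMIs in 53 shPml members and 0 in shCTRL members, 7.10-fold higher against that floor. Clec4e had 698 and 3 UMIs (log2 2.94, 1.39 to 5.22). Cstdc5, Stfa2, Cxcl10, Resf1 and Saa3, at 0 in shCTRL, were the other named genes, 5.52-, 2.88-, 2.73-, 2.64- and 2.56-fold higher against the same floor. Their lower counting bounds were log2 2.16, 1.22, 1.14, 1.09 and 1.05. Cxcl10 was seen in 10 of 57 shPml members and Saa3 in 10. The other shCTRL neutrophils did not share the low levels of the 4 members. In shCTRL interferon-low cells Cxcl2 stood at 32371 CPM, against 9114 in shCTRL members and 47015 in shPml members. Cxcl3 was at 3680 CPM, Ccl4 at 2791, Ier3 at 1642 and Clec4e at 2531 in those interferon-low cells, against 4024, 3034, 3034 and 3278 CPM in shPml members. With the Cxcl2 UMIs of the top cell taken out of each class and the class totals kept, the log2 ratio was 4.04. This setting lowers the level more in the shCTRL members, where that cell held 70.3% of the UMIs. With classes set after thinning each cell to 500 UMIs the log2 ratio of Cxcl2 was 0.97. That setting had 58 shPml and 6 shCTRL members, since the lymphocyte genes of the rule were thinned too. Its ratios used the full counts of those cells, so they are not depth-corrected values of the same members.

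On the low side, Klf2, a transcription factor of quiescence, had a median of 0.0776% of UMIs in shPml members and 0.653% in shCTRL members, with 369 and 78 UMIs (log2 -2.68, -3.04 to -2.31). One shCTRL member had 0 Klf2 UMIs and another held 67.9% of them. A further setting took each gene's UMIs in its top cell out of each class and kept the class totals. The log2 ratios of Klf2, Slfn4 and Malat1 were then -1.25, -1.18 and -0.56. This setting lowers the shCTRL level of these genes more, so these are not ratios without a cell. With the classes set after thinning, Slfn4 was at -0.95. Slfn4 had 260 and 30 UMIs (log2 -1.81, -2.35 to -1.21), with 3, 7, 8 and 12 per shCTRL member. Malat1, a nuclear long noncoding RNA, ranged from 1.22% to 10.4% of UMIs in shPml members and from 5.78% to 8.98% in shCTRL members (log2 -1.16, -1.30 to -1.02), so the ranges overlapped. Further named genes were Fosb, Ddit3, Jun, Tnfrsf23, Aldoa and Nfil3. Of the shCTRL Jun UMIs, 95% came from 1 cell. With the top-cell UMIs taken out in the same way, Jun stood at log2 2.28 in place of -1.78. All 8 shCTRL Fosb UMIs came from 1 cell. Here too the 4 shCTRL members stood apart from the other shCTRL neutrophils: Klf2 was at 11108 CPM in shCTRL members and 369 in shCTRL interferon-low cells, against 1733 in shPml members, and Slfn4 at 4272 and 164 against 1221.

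By list, with at least 20 UMIs, 908 genes gave a fold, 12.4% of them at least 2-fold higher in shPml members and 28.1% at least 2-fold lower, with a median log2 ratio of -0.32. For another 292 genes no fold could be given because 3 counts in 7022 UMIs exceed the shPml level. Against that background, 0 of 14 antiviral effectors were at least 2-fold higher and 3 lower (median -0.70), and of 13 signalling genes 0 were higher and 5 lower (median -0.67). Among them were Stat2, Irf9, Herc6 and Usp18, with 5, 5, 7 and 4 shCTRL UMIs. Of 10 interferon-gamma targets, 2 were higher and 5 lower (median -0.72). Of 18 mature neutrophil genes 9 were higher and 1 lower (median 0.99), and of 14 cytokine and NF-kB target genes 7 were higher and 0 lower (median 0.90). Il1b was among them, with 4128 and 62 UMIs (log2 1.13, 0.77 to 1.52), 45 of the 62 in the shCTRL cell that also held 45 of 64 Cxcl2 UMIs. Depth moved with these differences (median 3478 UMIs in shPml against 1762 in shCTRL members), and with only cells of at least 1000 UMIs Cxcl2 stood at log2 2.36, Klf2 at -2.79 and the median of the interferon lists at -0.46. Condition, mouse and library cannot be told apart.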

How the data were processed

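The authors deposited 1 matrix of whole-number UMI counts per library (32285 genes), written by Cell Ranger 4.0.0, as stated per the file headers. Build mm10, R 4.3.3 and Seurat 4.4.0 appear in the submitters' processing notes. The smallest barcode total was 500 UMIs. A barcode entered with 200 genes or more and no more than 10% mitochondrial UMIs. The cells and gene lists were chosen with earlier results of these data known.

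A level is a class's summed UMIs scaled to 1000000 (CPM). Ratios carry exact conditional Poisson intervals, shares exact Clopper-Pearson intervals, both 95% and for counting error only. A gene at 0 in a class was set to 3 counts, with no fold where that exceeded the other class. Named genes were the 12 (within shPml) or 10 (between libraries) in each direction ranked by the interval bound among genes with at least 50 UMIs, and from each list up to 4 members by that bound and 2 by UMIs; genes for ribosomal proteins, haemoglobin, antigen receptors and mitochondrial transcripts, Gm and Rik models, Xist and Y-linked genes were not eligible, and further list genes (Oas genes, Retnlg, Irf7, genes found in few cells) were picked with their values in view. Some genes of these lists, gates and rules are not reported here. The ratio code was tested on simulated data. Doublets were called with Scrublet in scanpy 1.11.5 (20 components): 5 shPml and 6 shCTRL barcodes, 0 and 1 of them members, left in except as an alternative. Python 3.11.15, numpy 2.4.6, scipy 1.17.1, pandas 2.3.3 and matplotlib 3.10.9 were used. Promoter sequences came from RefSeq (GRCm38.p6), gene positions from GENCODE M21.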

Additional observations from a re-analysis of the deposited data

How the results depend on the processing

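No paired analysis was possible because there was a single library in each group. Of 16 alternatives, 1 (each gene without its top cell) was chosen after seeing the data. It took a gene's top-cell UMIs out of each class and kept the class totals, and is called "without top cells" below. The ratio of member shares ran from 1.38 to 2.36 over 11 settings of the cell filters and gates, of which 10 changed the neutrophils (the 20% mitochondrial limit did not); its interval of 0.622 to 6.38 is wide. The median of the interferon lists within shPml (2.18) stayed positive throughout. It was 2.06 at the 0.5% interferon threshold, 1.81 with classes set after thinning, 2.01 with equal weight per cell and 2.32 without top cells. Within shCTRL the median (3.02) rested on only 3 antiviral effectors and 1 signalling gene with at least 20 UMIs. It was 1.90 at the 0.5% threshold, 2.48 without shared barcodes and 2.41 after thinning. Without Scrublet calls it was 3.51, without the deepest members 3.68 and without top cells 1.88. With at least 100 UMIs no gene was left. Between libraries it (-0.67) was -0.97 at 0.5%, -0.40 at the 5% mitochondrial limit, -0.25 after thinning, -0.94 without the deepest members, -0.23 with at least 100 UMIs and -0.37 without top cells.

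The 113 higher genes between libraries became 58 at 0.5%, 72 without the deepest members, 75 with at least 100 UMIs and 180 without top cells. The 83 lower genes became 48 at 0.5%, 42 at the 5% calprotectin threshold, 55 after thinning, 508 with at least 10 UMIs, 24 with at least 100 UMIs and 14 without top cells. Jun turned to 0.0148 at 0.5%, 1.90 without the deepest members and 2.28 without top cells. The cause was not tested, except that the UMI minimum changes how many genes enter and the top cell is 1 of 4 in shCTRL but 1 of 57 in shPml. With the class totals kept, taking out top-cell UMIs tends to lower shCTRL levels more. The values without top cells are therefore not levels of the remaining cells. At 7022 UMIs, 1 UMI in the shCTRL members is 142 CPM.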

Other observations

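In each of the gene lists described here, at most 2 measured genes were at least 2-fold apart between interferon-high and interferon-low neutrophils of the shPml library. Some of their genes, such as Casp4 and Sp100, are themselves known to be induced by interferon. Among apoptosis and survival genes, 2 of 13 measured were at least 2-fold higher and 0 lower. Casp4, which encodes the inflammatory caspase-11, had 142 UMIs in 42 members and 90 in interferon-low cells (log2 1.46, 1.07 to 1.86), and the survival gene Mcl1 846 and 1123 (log2 0.39). Among pattern-recognition and Fc receptor genes, 2 of 8 measured were at least 2-fold higher: Fcgr4, an activating IgG receptor, with 76 and 61 UMIs (log2 1.12, 0.61 to 1.63), and Nod1, with 20 and 16 (log2 1.12, 0.10 to 2.17). Fcer1g and Cd14, with more UMIs, stood at log2 0.03 and -0.10.

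Of 19 hypoxia and glycolysis genes, 1 was at least 2-fold higher and 0 lower (median log2 0.31). It was Egln3, an oxygen-sensing prolyl hydroxylase, with 36 and 30 UMIs (log2 1.07, 0.33 to 1.81). Of 20 immediate early and dissociation genes, 0 were at least 2-fold higher and 2 lower, the heat shock genes Hspa1b (log2 -1.11) and Dnajb1 (log2 -1.48, -2.42 to -0.63), with a median of 0.15. Of 7 measured genes of PML nuclear bodies 0 passed 2-fold. Sp100, a nuclear body component, had 58 UMIs in each class (log2 0.80, 0.25 to 1.35). Proliferation genes gave 12 UMIs in all 57 members, all of them Pcna.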
